A study of Mus musculus with 9 samples.

Results

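Alveolar type 2 cells make pulmonary surfactant, the film of lipid and protein that lowers surface tension at the air surface of the lung, and they store it in lamellar bodies until it is secreted. The 10 genes described here stand for the steps of that work and are widely used as markers of the type 2 cell. Sftpb and Sftpc encode the small hydrophobic surfactant proteins, and Sftpa1 and Sftpd encode the collectins, sugar-binding proteins of airway defence. Napsa encodes a protease that trims surfactant protein precursors, Lamp3 a membrane protein of lamellar bodies, and Abca3 the pump that loads phospholipid into them. Lpcat1 encodes an acyltransferase that forms the saturated phosphatidylcholine of surfactant, Slc34a2 a sodium-phosphate transporter that takes back phosphate released from surfactant lipid, and Etv5 a transcription factor that acts downstream of fibroblast growth factor and maintains type 2 cells. They were chosen by gene symbol, and all 10 were found among the 55359 genes of the deposited table.

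The samples were lung tissue, collected on day 28, of C57BL/6J male animals whose age was 6 to 8 weeks. The Control group was given saline into the trachea, and the Silica group 5 mg of silica by the same route. The Silica + ATL-III group had the same silica and a daily intraperitoneal dose of 30 mg/kg atractylenolide III, a plant sesquiterpene lactone. No group received atractylenolide III without silica, and the labels mention no abdominal injection for the other groups. The study housed 20 mice per group and each group has 3 libraries of poly(A) RNA. The labels do not say whether each library is 1 mouse, so p-values measure the spread among these libraries, which may be in part technical.

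Libraries held 16047175 to 17792481 counts. The 10 genes together took 2.81% to 3.80% of all counts in Control, 3.72% to 4.40% in Silica and 3.03% to 3.95% in Silica + ATL-III, and Sftpc alone took 2.05% to 3.12%, so the defining marker of the type 2 cell was abundant in every library. Scgb1a1, the secretory protein of airway club cells, took 3.42% to 4.51% in 8 libraries and 1.65% in Silica 1, the library in which Sftpc instead was the most counted gene. Calls of single genes named below that are lost without Silica 1 are marked as such. Red blood cell genes summed to 1134 FPKM in Silica + ATL-III 1 and to 4993 to 8537 in the other 8 libraries, and leaving out Silica + ATL-III 1 ended no call of a member. In whole lung, fewer or more type 2 cells and less or more RNA per cell cannot be told apart.

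The homeodomain factor NKX2-1, C/EBP factors and forkhead factors are known regulators of surfactant genes, so promoters of members are shown first. RefSeq entries (build GRCm38.p6) were found for 7 of the 10, and those of 4 are printed, from up to 250 bases upstream of the annotated start to the base before the first annotated exon. Capitals mark matches on either strand to 4 motifs. The motif of NKX2-1 was CTCAAG. The forkhead motif was TGTTTNC. The C/EBP motif was TTNNGCAA. The TATA box was searched as TATAAA. Sftpb and Sftpa1 are surfactant protein genes, of which Sftpa1 was called after silica and Sftpb was not, a difference between them that was not tested, and Lamp3 and Lpcat1 are the members with the largest falls under atractylenolide III.
Sftpb, chr6:72304360-72304609, plus strand: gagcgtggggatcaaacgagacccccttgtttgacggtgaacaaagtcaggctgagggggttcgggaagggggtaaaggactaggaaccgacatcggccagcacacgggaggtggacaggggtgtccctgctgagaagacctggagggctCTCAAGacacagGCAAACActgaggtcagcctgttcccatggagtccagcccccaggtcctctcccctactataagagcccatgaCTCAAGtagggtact
Sftpa1, chr14:41131538-41131781, plus strand: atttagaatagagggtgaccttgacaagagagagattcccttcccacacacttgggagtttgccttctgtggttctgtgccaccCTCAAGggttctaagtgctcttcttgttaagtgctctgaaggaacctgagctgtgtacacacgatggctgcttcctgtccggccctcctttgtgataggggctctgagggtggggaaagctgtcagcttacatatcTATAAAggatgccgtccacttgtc
Lamp3, chr16:19706376-19706615, minus strand: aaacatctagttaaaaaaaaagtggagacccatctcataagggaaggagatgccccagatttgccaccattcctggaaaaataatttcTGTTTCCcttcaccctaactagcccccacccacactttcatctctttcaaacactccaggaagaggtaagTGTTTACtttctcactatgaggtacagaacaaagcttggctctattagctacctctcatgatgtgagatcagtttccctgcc
Lpcat1, chr13:73466981-73467196, plus strand: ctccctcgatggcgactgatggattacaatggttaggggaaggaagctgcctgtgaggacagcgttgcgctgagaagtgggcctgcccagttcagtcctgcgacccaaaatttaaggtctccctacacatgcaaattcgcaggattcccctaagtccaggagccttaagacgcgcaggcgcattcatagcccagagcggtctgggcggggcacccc
The Sftpb window held CTCAAG at 100 and 15 bases upstream of the start and a forkhead match at 88. That of Sftpa1 held CTCAAG at 166 bases and TATAAA at 30 bases upstream, and that of Lamp3 held forkhead matches at 162 and 92. None of the 4 motifs was found in the Lpcat1 window of 216 bases. Among 32851 mouse promoters cut to 250 bases, 13.3% held CTCAAG, 17.8% a forkhead match, 9.56% a C/EBP match and 12.4% TATAAA. The motifs do not overlap one another in these windows, and a match of letters is not a binding site. Sftpc, Sftpd and Napsa are named without a promoter sequence.

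Levels are given in FPKM, the count scaled to exon length and library total as deposited, a scale per length on which genes can be set side by side. In Control lung the order of mean levels was Sftpc at 23444 ± 3859 FPKM (SD, n = 3, as for all means below), Sftpa1 at 1406 ± 203, Sftpd at 451 ± 56.7, Sftpb at 357 ± 34.5, Lamp3 at 322 ± 36.5, Slc34a2 at 220.1 ± 15.8, Lpcat1 at 51.8 ± 2.57, Napsa at 47.7 ± 2.54, Etv5 at 22.6 ± 0.781 and Abca3 at 14.6 ± 1.48. The ranges of neighbours overlapped for Sftpd and Sftpb, for Sftpb and Lamp3, and for Lpcat1 and Napsa, so the order within those pairs is not resolved. All other neighbours were apart in the 3 Control libraries.

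**Figure D1:**
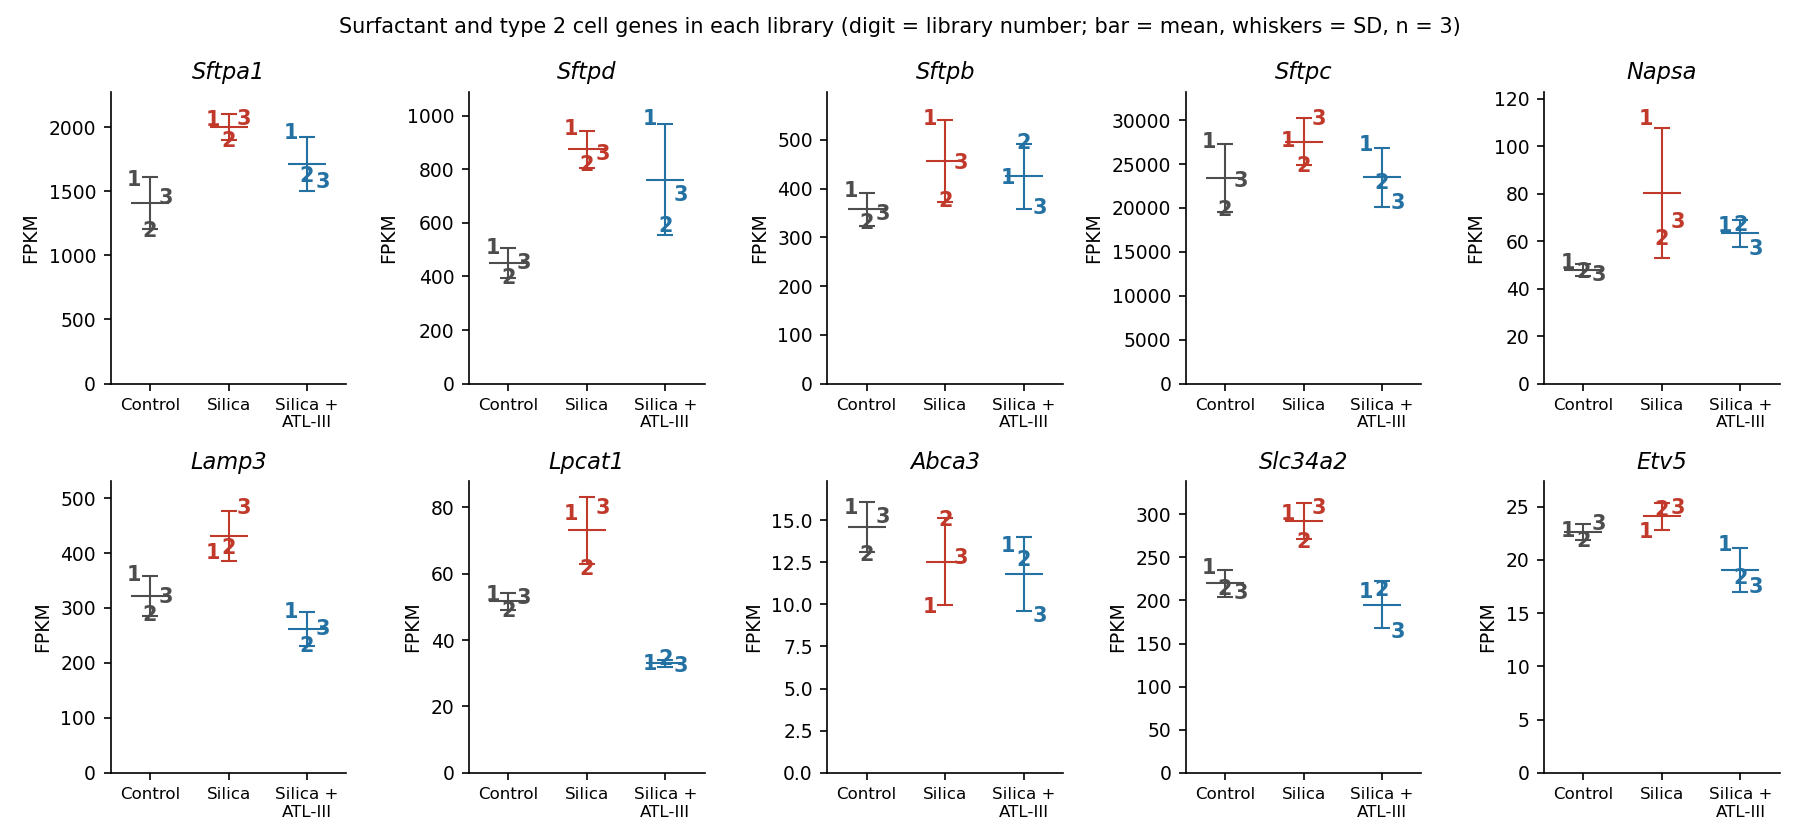
FPKM of the 10 genes in each of the 9 libraries, 1 panel per gene with an axis from 0; each digit is a library with that number, the bar is the group mean and the whiskers are the SD (n = 3). Lpcat1 separates all 3 groups, with 32.1 to 34.2 FPKM in Silica + ATL-III, 48.9 to 53.7 in Control and 61.5 to 79.9 in Silica.

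After silica alone, 6 of the 10 genes rose and none fell. They were the collectins Sftpd and Sftpa1, the protease Napsa, the lipid enzyme Lpcat1, the phosphate transporter Slc34a2 and the lamellar body protein Lamp3, with increases from 1.42-fold to 2.08-fold. Sftpb, Sftpc, Abca3 and Etv5 did not pass the test. Over all 15459 genes tested, 16.9% were called in either direction, 9.11% higher and 7.81% lower (edgeR quasi-likelihood test, Benjamini-Hochberg adjusted p under 0.05). The FPKM ranges of the 3 Silica and the 3 Control libraries did not overlap for the same 6 members, all higher, and for 43.2% of all genes (14.4% higher, 28.9% lower). The median log2 fold change of the 10 genes was 0.51, against -0.01 over all genes tested, and all members passed the filter on low values.

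With atractylenolide III added, 4 of the 10 genes fell against Silica and none rose. Lpcat1, Lamp3, Slc34a2 and Etv5 were at 0.457 to 0.804 of their Silica level, while the 4 surfactant protein genes, Napsa and Abca3 did not pass the test. The background in this comparison was 21.2% of genes called, 11.2% higher and 10% lower, and the members' median was -0.26 against -0.00 over all genes. Against Control, Silica + ATL-III lungs had Sftpd higher and Lpcat1 lower and no other member called, with a background of 15.9% of genes called (9.14% higher, 6.71% lower). Ranges did not overlap for the 4 members called lower against Silica, as for 35.1% of all genes (15.5% higher, 19.6% lower). Against Control they did not overlap for 4 members, Sftpd and Napsa higher and Lpcat1 and Etv5 lower, as for 42.6% of all genes (12% higher, 30.6% lower). The 3 comparisons share libraries in pairs and are not independent of each other.

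**Figure D2:**
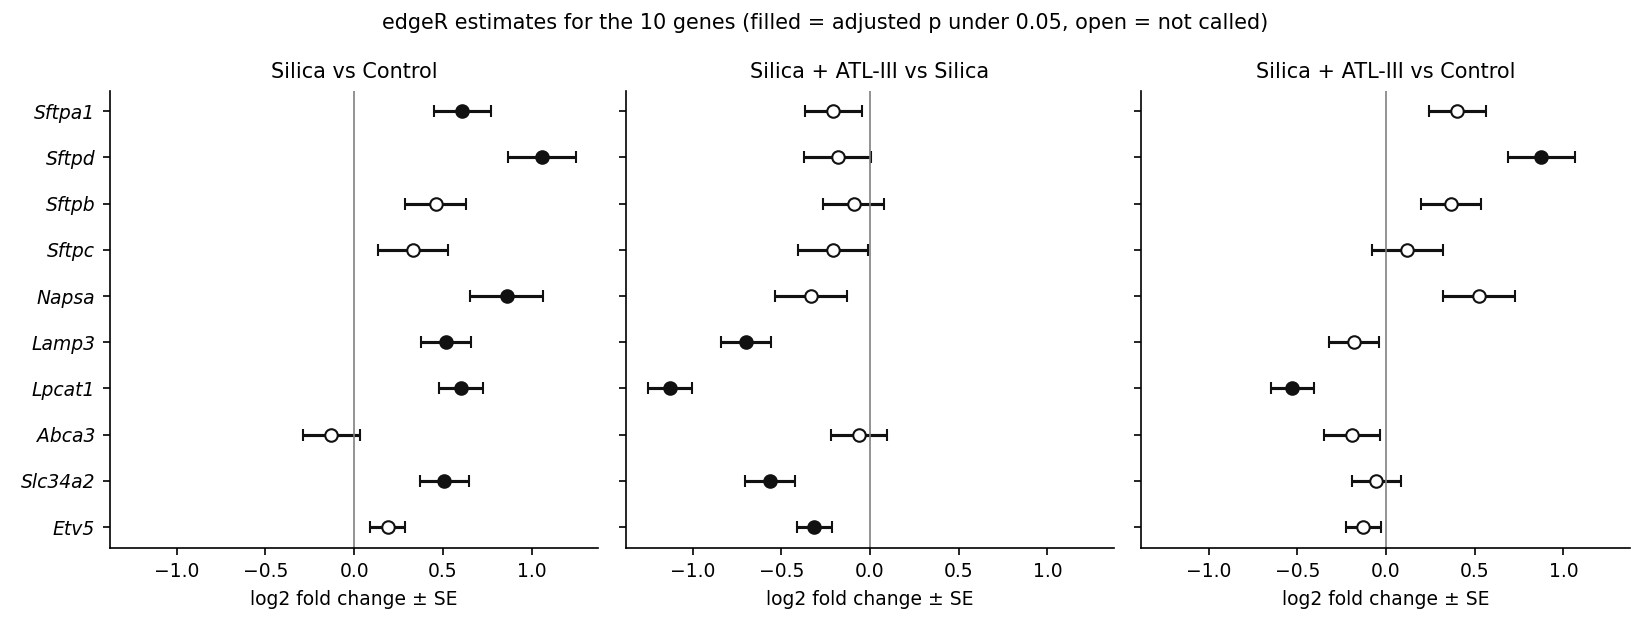
Log2 fold change of each gene in the 3 comparisons, from the edgeR fit, with bars of 1 SE; filled points passed an adjusted p of 0.05. Sftpd lies at 1.06 and 0.88 in the comparisons with Control, and Lpcat1 at 0.60 after silica and -1.13 in Silica + ATL-III against Silica.

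Sftpd (ENSMUSG00000021795, chromosome 14), surfactant protein D, had the largest rise after silica. Control libraries had 508, 395 and 449.8 FPKM, Silica libraries 951, 817 and 857, and Silica + ATL-III libraries 991, 590.1 and 706. Both silica groups lay wholly above Control and overlapped each other. The increase in Silica was 2.08-fold (log2 1.06 ± 0.19 SE, adjusted p = 0.0058, edgeR), and in Silica + ATL-III against Control it was 1.84-fold (0.88 ± 0.19, adjusted p = 0.0088, edgeR). Against Silica the value was -0.18 ± 0.19 (adjusted p = 0.53, edgeR). Both increases against Control stayed called under each alternative normalization and test and whichever library was left out, with adjusted p of at most 0.033 in Silica and 0.0499 in Silica + ATL-III.

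Sftpa1 (ENSMUSG00000021789, chromosome 14), surfactant protein A, is the more abundant collectin. Its FPKM were 1588, 1186 and 1445 in Control, 2053, 1887 and 2066 in Silica, and 1950.2, 1617 and 1569 in Silica + ATL-III. All Silica libraries lay above all Control libraries, and Silica + ATL-III lay between and overlapped both. The rise in Silica was 1.53-fold (log2 0.61 ± 0.16, adjusted p = 0.028, edgeR). Leaving out any 1 of Control 1, Control 2, Control 3, Silica 1 or Silica 3 ended this call, with an adjusted p of up to 0.10 in edgeR. The values against Silica (-0.21 ± 0.16) and between Silica + ATL-III and Control (0.40 ± 0.16) did not pass the test, with adjusted p of 0.39 and 0.12 in edgeR.

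Sftpc (ENSMUSG00000022097, chromosome 14), the surfactant protein most specific to type 2 cells, did not pass the test in any comparison. It stood at 27488, 19802 and 23043 FPKM in Control, at 27627, 24818 and 30186 in Silica, and at 27147, 22837 and 20530.5 in Silica + ATL-III. The groups overlapped in every pair. The log2 fold changes were 0.33 ± 0.20 in Silica against Control, -0.21 ± 0.20 in Silica + ATL-III against Silica and 0.12 ± 0.20 against Control, with adjusted p of 0.26, 0.48 and 0.72 in edgeR.

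Sftpb (ENSMUSG00000056370, chromosome 6), the surfactant protein without which the surface film does not form, had 396, 329 and 348 FPKM in Control, 544, 375 and 452 in Silica, and 422, 493 and 360.2 in Silica + ATL-III. The groups overlapped, and Silica 1 was the highest library. Its log2 fold change after silica was 0.46 ± 0.17 (adjusted p = 0.082, edgeR), and 0.30 ± 0.15 without Silica 1. Against Silica it was -0.09 ± 0.17 and against Control 0.37 ± 0.17, with adjusted p of 0.74 and 0.17 in edgeR.

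Napsa (ENSMUSG00000002204, chromosome 7), the protease of surfactant precursors, rose 1.81-fold after silica (log2 0.86 ± 0.20, adjusted p = 0.018, edgeR). Its FPKM were 50.6, 46.8 and 45.8 in Control, 112, 60.7 and 68.2 in Silica, and 66.2, 66.9 and 56.8 in Silica + ATL-III. Every library of both silica groups lay above Control, and Silica 1 stood far above the other Silica libraries. Without Silica 1 the log2 fold change was 0.52 ± 0.11 (adjusted p = 0.025, edgeR). The call was lost without Control 2 or Control 3, with an adjusted p of up to 0.069 in edgeR. Against Silica the value was -0.33 ± 0.20, and 0.02 ± 0.11 without Silica 1, with adjusted p of 0.27 and 0.93 in edgeR. In Silica + ATL-III against Control it was 0.53 ± 0.20 (adjusted p = 0.10, edgeR), with ranges that did not overlap, as held in the higher direction for 12% of all genes. Napsa shares 502 exonic bases with the antisense gene Gm15396, which had 2 to 9 counts per library.

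Lamp3 (ENSMUSG00000041247, chromosome 16) rose after silica and fell below Silica with atractylenolide III. It had 359.9, 287 and 319.6 FPKM in Control, 399.8, 410.0 and 482 in Silica, and 293, 231 and 261 in Silica + ATL-III. Silica lay wholly above both other groups, which overlapped. The increase in Silica was 1.43-fold (log2 0.52 ± 0.14, adjusted p = 0.031, edgeR), and this call was lost without Control 2, Control 3, Silica 1 or Silica 3 (adjusted p of up to 0.11). The decrease against Silica was to 0.616 of its level (-0.70 ± 0.14, adjusted p = 0.0056, edgeR) and stayed called under each alternative. Against Control the value was -0.18 ± 0.14 (adjusted p = 0.43, edgeR).

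Lamp3 is also a gene of mature dendritic cells. Of 7 other tested markers of those cells, 5 rose after silica, none fell, and 2 fell in Silica + ATL-III against Silica. Without Control 1, Silica 1 or Silica 3 the count after silica was 3, and the count of falls was 4 without Silica + ATL-III 1 and 1 without any 1 of Silica 2, Silica 3, Silica + ATL-III 2 or Silica + ATL-III 3. The summed level of all 8 listed markers, 7 of them tested, was 41.5 to 51.3 FPKM in Control, 71.8 to 90.7 in Silica and 47.0 to 64.1 in Silica + ATL-III. Lamp3 alone had 231 to 482 FPKM. Among the tested markers Cd83 rose from 8.51 ± 0.904 to 15 ± 3.28 FPKM and fell to 7.84 ± 1.96 with atractylenolide III (adjusted p = 0.013 and 0.0081, edgeR). The rise of Cd83 was lost without Control 1, Silica 1 or Silica 3 (adjusted p of up to 0.052). The part of those cells in the Lamp3 values was not tested.

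Abca3 (ENSMUSG00000024130, chromosome 17), the lamellar body lipid pump, was the member with the lowest level and the only one with a negative value after silica. Its FPKM were 15.7, 12.9 and 15.2 in Control, 9.85, 15.02 and 12.8 in Silica, and 13.4, 12.6 and 9.33 in Silica + ATL-III. The groups overlapped in every pair, and Silica 1 was the lowest Silica library. The log2 fold changes were -0.13 ± 0.16, -0.06 ± 0.16 and -0.19 ± 0.16 in Silica against Control, Silica + ATL-III against Silica and Silica + ATL-III against Control, with adjusted p of 0.60, 0.82 and 0.46 in edgeR. Without Silica 1 the value after silica was 0.01 ± 0.15. Abca3 shares 914 exonic bases with the antisense gene D330041H03Rik, which had 84 to 181 counts per library, and no source used here gives the strand setting of the counting.

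Lpcat1 (ENSMUSG00000021608, chromosome 13), the acyltransferase of surfactant lipid, was the member that separated all 3 groups. It had 53.7, 48.9 and 52.7 FPKM in Control, 78.1, 61.5 and 79.9 in Silica, and 32.9, 34.2 and 32.1 in Silica + ATL-III. Every Silica library lay above every Control library, and every Silica + ATL-III library below both. It rose 1.52-fold after silica (log2 0.60 ± 0.12, adjusted p = 0.010, edgeR) and fell to 0.457 of the Silica level with atractylenolide III (-1.13 ± 0.12, adjusted p = 0.00021, edgeR). Against Control, Silica + ATL-III was at 0.694 of the level (-0.53 ± 0.12, adjusted p = 0.013, edgeR), a call lost without Control 1 or Control 3, with an adjusted p of up to 0.058. The rise after silica stayed called whichever library was left out, and missed the threshold (adjusted p = 0.056, edgeR) when libraries were scaled to pan-epithelial genes.

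Slc34a2 (ENSMUSG00000029188, chromosome 5), the phosphate transporter, had 238, 213 and 209 FPKM in Control, 300.4, 268 and 308 in Silica, and 210.1, 212 and 164 in Silica + ATL-III. Silica lay above both other groups. The rise was 1.42-fold (log2 0.51 ± 0.14, adjusted p = 0.030, edgeR), and it was lost without Control 1, Control 2, Control 3, Silica 1 or Silica 3 (adjusted p of up to 0.12). The fall against Silica was to 0.676 of the level (-0.56 ± 0.14, adjusted p = 0.014, edgeR), and it was lost without Silica 3 (adjusted p = 0.054). Against Control the value was -0.06 ± 0.14 (adjusted p = 0.83, edgeR).

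Etv5 (ENSMUSG00000013089, chromosome 16), the transcription factor, had the smallest SD in Control relative to its mean. Its FPKM were 22.7, 21.8 and 23.3 in Control, 22.6, 24.7 and 24.9 in Silica, and 21.4, 18.3 and 17.5 in Silica + ATL-III. Silica overlapped Control, and Silica + ATL-III lay below both. After silica the log2 fold change was 0.19 ± 0.098 (adjusted p = 0.19, edgeR). Against Silica it fell to 0.804 of the level (-0.32 ± 0.099, adjusted p = 0.041, edgeR), a call lost without Silica 1, Silica 2, Silica 3, Silica + ATL-III 2 or Silica + ATL-III 3 (adjusted p of up to 0.125) and in 4 other settings. Against Control the value was -0.13 ± 0.099 (adjusted p = 0.43, edgeR).

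Ratios between members of 1 library do not depend on how libraries are scaled. Sftpd relative to Sftpc was 0.0193 ± 0.000747 in Control, 0.0319 ± 0.00314 in Silica and 0.0323 ± 0.00565 in Silica + ATL-III, so that both silica groups lay wholly above Control. Sftpa1 relative to Sftpc went the same way, at 0.0601 ± 0.00248, 0.0729 ± 0.00398 and 0.0730 ± 0.00298. Within the collectins, Sftpd relative to Sftpa1 was 0.321 ± 0.0108 in Control against 0.437 ± 0.0244 and 0.441 ± 0.0720. Sftpb relative to Sftpc overlapped in all pairs of groups.

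Lpcat1 relative to Sftpc was 0.00224 ± 0.00026 in Control, 0.00265 ± 0.000173 in Silica and 0.00142 ± 0.000186 in Silica + ATL-III, and the 3 groups did not overlap. Abca3 relative to Sftpc was lower in Silica + ATL-III (0.000501 ± 4.96e-05) than in Control (0.000628 ± 4.83e-05), with no overlap. Napsa relative to Slc34a2 was 0.217 ± 0.00402 in Control and 0.326 ± 0.0184 in Silica + ATL-III. In Silica it was 0.372 in Silica 1 and 0.226 and 0.222 in the other libraries, which lay just above Control. In these libraries some proportions between members thus differed between groups, but the ratios carry no test.

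**Figure D3:**
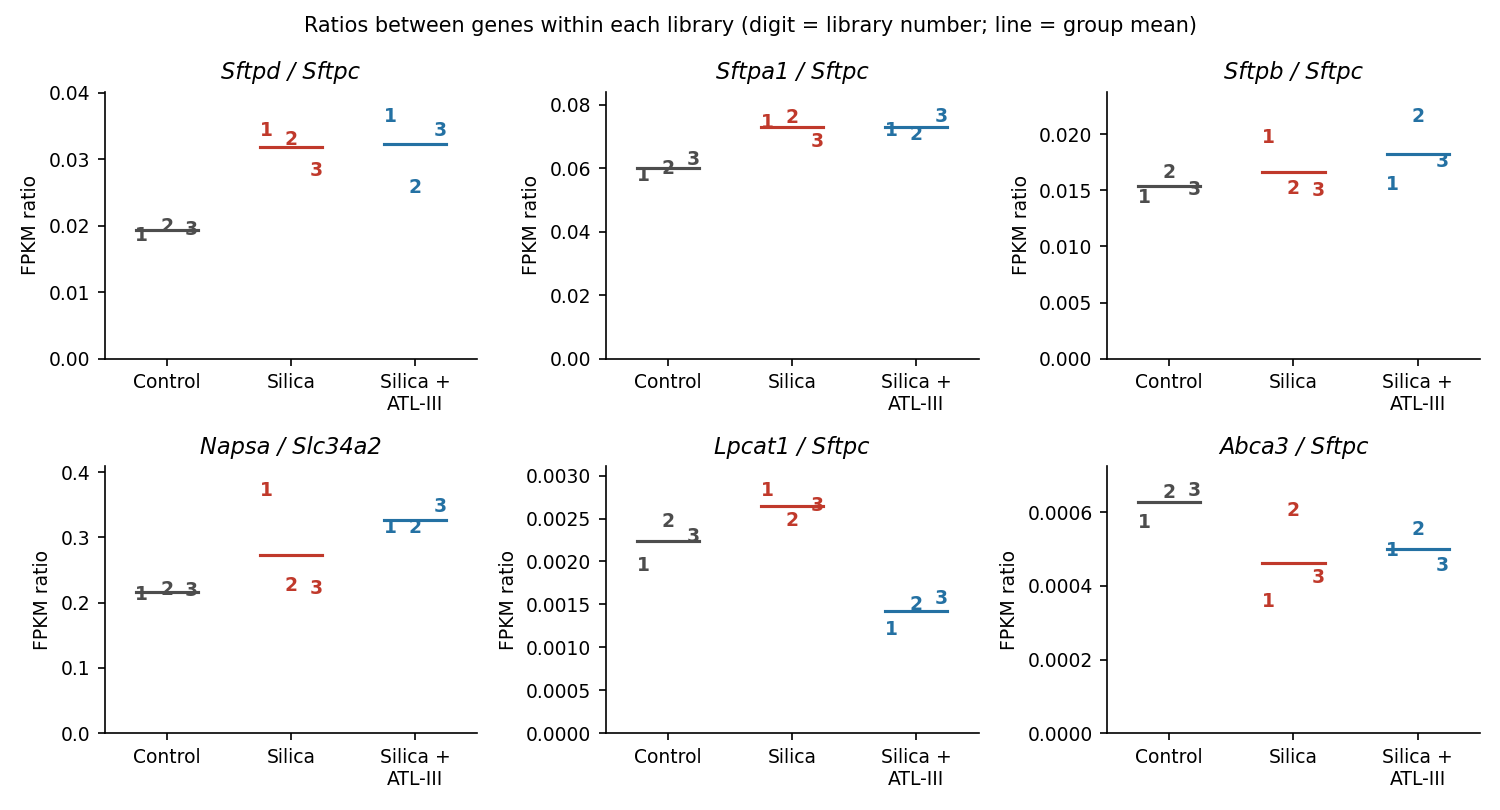
Ratios of FPKM between members in each of the 9 libraries, by group, with axes from 0; each digit is a library with that number and the line is the group mean. Sftpd relative to Sftpc is 0.0185 to 0.0199 in Control and 0.0258 to 0.0365 in the silica groups, and Lpcat1 relative to Sftpc is lowest in Silica + ATL-III, at 0.00121 to 0.00156.

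Levels were also set against genes of all lung epithelium. Here CPM are counts scaled to the library total multiplied by the library's TMM factor, the normalization of the edgeR fit. That factor was 1.044 to 1.061 in Control, 0.946 to 1.011 in Silica and 0.959 to 0.973 in Silica + ATL-III. The mean log2 CPM of 13 pan-epithelial genes, such as Epcam and Cdh1, was 5.43 ± 0.131 in Control and 5.64 ± 0.174 in Silica. In Silica + ATL-III it was 5.55 ± 0.0807, and the groups overlapped in every pair. Relative to that mean, the log2 level of Sftpd was 4.59 ± 0.0673 in Control, 5.45 ± 0.0664 in Silica and 5.32 ± 0.392 in Silica + ATL-III. That of Lpcat1 was 2.42 ± 0.0636, 2.80 ± 0.0905 and 1.77 ± 0.0532. With libraries scaled to the pan-epithelial genes in the fit, 2 members were called after silica (in place of 6), 3 in Silica + ATL-III against Silica and 2 against Control. Of all 15459 genes tested, 2131, 2017 and 1778 were called with this scaling in the 3 comparisons, against 2615, 3279 and 2451 without it. This scaling was chosen after seeing the data.

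Across the 9 libraries, which share group differences and library scaling, the members varied alike to different degrees. Pearson's r of log2 levels was 0.956 for Sftpa1 and Sftpd, 0.924 for Sftpb and Napsa, 0.910 for Lamp3 and Etv5, 0.899 for Lamp3 and Lpcat1 and 0.874 for Lpcat1 and Slc34a2. For pairs of Sftpa1, Sftpb, Sftpd or Napsa with Lamp3, Lpcat1, Slc34a2 or Etv5 it ran from 0.190 (Sftpb and Etv5) to 0.681 (Sftpa1 and Slc34a2). With the mean of the 9 other members, Slc34a2 had 0.914 and Sftpc 0.899, whereas Abca3 had -0.062. These values describe 9 libraries and carry no test.

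The genes most like the members' mean pattern over the 9 libraries, by the same measure, were Acsl4 (r = 0.983), Ccnb1 (0.968), Mmp14 (0.963), Cd276 (0.960), As3mt (0.959), Abhd12b (0.957), Sfrp1 (0.954) and Scp2-ps2 (0.953). Acsl4, which activates long-chain fatty acids, had 48.3 ± 3.49 FPKM in Control, 64.1 ± 5.10 in Silica and 48.2 ± 7.12 in Silica + ATL-III. Mmp14, a membrane metalloproteinase, had 3.95 ± 0.415, 7.25 ± 1.56 and 3.74 ± 0.788. Ccnb1, Cd276 and Abhd12b averaged at most 1.6 FPKM in any group.

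Of 16 other type 2 cell markers, 9 rose after silica and none fell, 10 fell in Silica + ATL-III against Silica and none rose, and 3 rose and 3 fell against Control. Their medians were 0.52, -0.74 and -0.15 on the log2 scale. The count after silica was 3 without Control 2, Control 3 or Silica 1. Falls against Silica numbered 8 without Silica 1 or Silica 3 and 11 without Silica 2. Against Control, with 1 library left out, rises numbered 2 to 4 and falls 2 to 4. All genes called after silica numbered 2615, and 1147, 862 and 865 without Control 2, Control 3 and Silica 1. Fabp5, a fatty acid binding protein that macrophages also express, rose from 22.7 ± 2.18 to 93.7 ± 19.8 FPKM and was at 40.0 ± 9.24 with atractylenolide III (log2 2.15 ± 0.21 and -1.21 ± 0.20, adjusted p = 0.00015 and 0.0018, edgeR). Chil1, a chitinase-like protein, rose from 249 ± 51.9 to 754 ± 145 FPKM and was at 432 ± 126 (adjusted p = 0.0014 and 0.032, edgeR). The fall of Chil1 was lost without Silica 1, Silica 3, Silica + ATL-III 2 or Silica + ATL-III 3 (adjusted p of up to 0.12) and with the compared groups fitted alone.

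Acoxl did not differ after silica in the test (11.3 ± 2.19 and 12.1 ± 0.262 FPKM) and fell to 4.08 ± 0.519 FPKM with atractylenolide III (log2 -1.54 ± 0.15, adjusted p = 0.00012, edgeR). Egfl6 rose from 14.4 ± 2.21 to 24.3 ± 5.20 FPKM and fell to 8.34 ± 2.44 (0.85 ± 0.22 and -1.53 ± 0.22, adjusted p = 0.023 and 0.00088, edgeR). Its rise was lost without Control 2, Control 3, Silica 1 or Silica 3 (adjusted p of up to 0.095) and in the limma settings. Ctsh, a lysosomal protease of lamellar bodies that acts on surfactant precursors, was higher than Control in both silica groups, at 218 ± 12.1 and 222 ± 19.5 FPKM against 156 ± 22.9 (adjusted p = 0.019 and 0.0099, edgeR). Its call after silica was lost without Control 2, Control 3 or Silica 1 (adjusted p of up to 0.074) and with pan-epithelial scaling, and both calls were lost with limma on log2(TPM + 0.5). Bex2 fell against Control in Silica + ATL-III (-1.23 ± 0.25, adjusted p = 0.0058, edgeR).

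**Figure D4:**
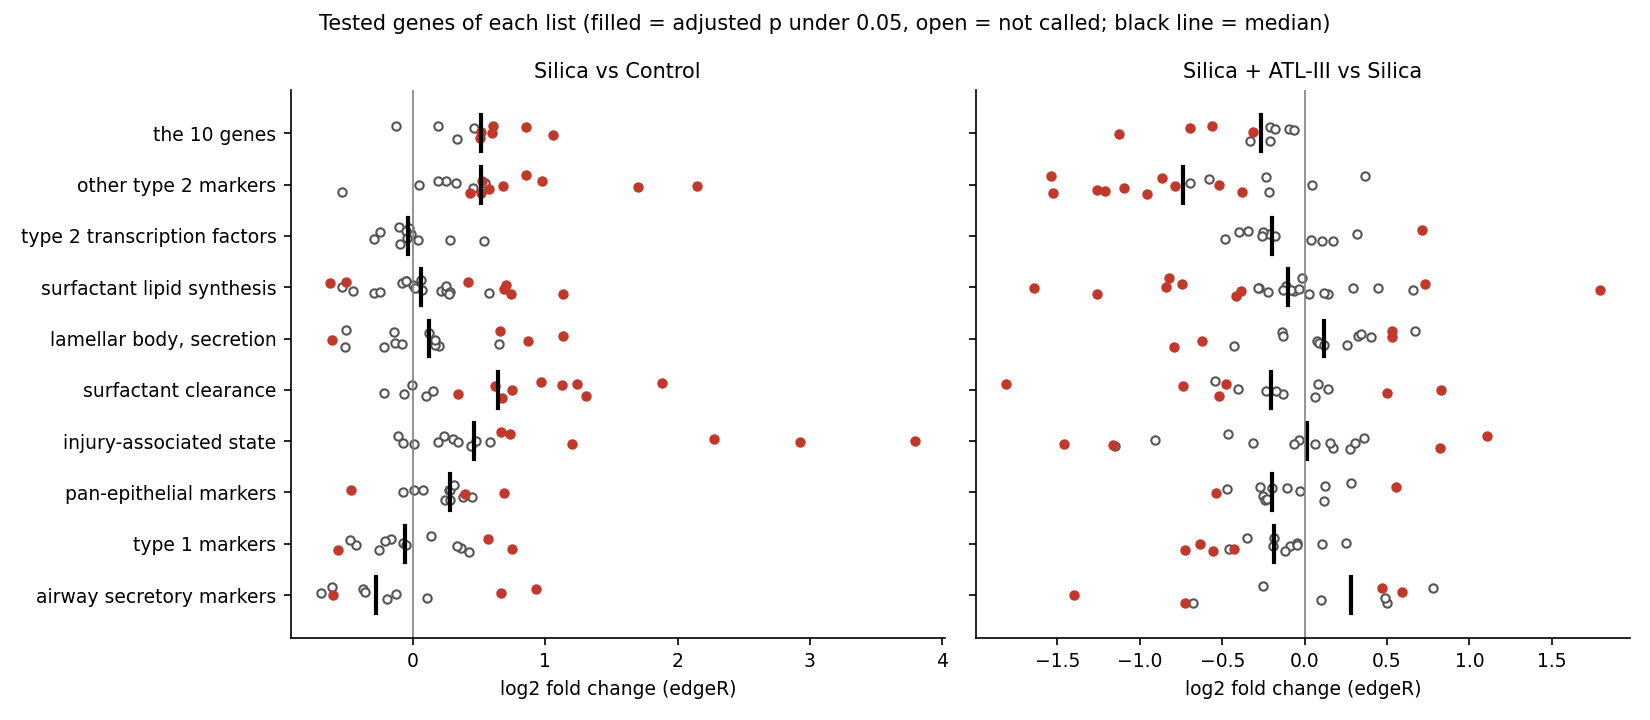
Log2 fold changes (edgeR) of the tested genes of each list in Silica against Control and in Silica + ATL-III against Silica; each point is a gene, filled where called, and the black line is the list's median. The other type 2 cell markers have medians of 0.52 and -0.74, beside 0.51 and -0.26 for the 10 members.

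Genes of surfactant lipid synthesis did not move together. Of 24 tested, 5 rose and 2 fell after silica, 2 rose and 7 fell in Silica + ATL-III against Silica, and 1 rose and 2 fell against Control. The median after silica was 0.07 and changed sign in 6 of 13 alternative settings. Scd1, the fatty acid desaturase, rose from 279.8 ± 6.28 to 569.9 ± 196 FPKM and fell to 181 ± 25.2 (log2 1.14 ± 0.23 and -1.65 ± 0.23, adjusted p = 0.0089 and 0.0007, edgeR). Elovl1, a fatty acid elongase, went from 63.5 ± 7.39 to 98.8 ± 18.2 and 40.9 ± 4.56 FPKM (0.74 ± 0.16 and -1.26 ± 0.16, adjusted p = 0.012 and 0.00041, edgeR). Dgat1, which makes triacylglycerol, rose with atractylenolide III, from 8.96 ± 0.881 in Silica to 30.7 ± 6.14 FPKM (1.79 ± 0.19, adjusted p = 0.0002, edgeR).

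Lpin2, a phosphatidate phosphatase, fell from 27.6 ± 0.781 to 16.8 ± 2.00 FPKM after silica and was at 27.4 ± 5.08 with atractylenolide III (log2 -0.62 ± 0.14 and 0.73 ± 0.14, adjusted p = 0.013 and 0.0034, edgeR). Chka, the choline kinase of phosphatidylcholine synthesis, fell after silica (-0.51 ± 0.11, adjusted p = 0.014, edgeR). Both falls after silica were lost without Control 3 or Silica 1, and that of Chka also without Control 1. The list's count of rises after silica was 3 without Control 2 and 2 without Control 3 or Silica 1, and its count of falls against Silica was 3 without Silica 1. Against Control the falls, of Elovl1 and Chka, numbered 1 without Control 2 and 0 without any 1 of the other 5 libraries.

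Of 15 genes of lamellar body assembly and secretion, 3 rose and 1 fell after silica, 2 rose and 2 fell against Silica, and 3 rose against Control. The rises after silica numbered 2 without Control 1, Control 2 or Silica 1 and 4 without Silica 2. The fall after silica, of Hps4, was lost without Control 1, Control 3, Silica 1 or Silica 3. Rises against Silica numbered 1 without Silica 2 or Silica + ATL-III 2 and 4 without Silica + ATL-III 3, and falls 1 without Silica 1 or Silica + ATL-III 2. Atp6v1a, a subunit of the proton pump that acidifies these organelles, rose from 33.6 ± 0.980 to 57.0 ± 12.2 FPKM and fell to 32.6 ± 0.414 (adjusted p = 0.0047 and 0.0039, edgeR). Rab27a, a small GTPase of granule secretion, was at 16.1 ± 1.15, 16.9 ± 1.95 and 24.2 ± 3.88 FPKM and rose against both other groups (log2 0.53 ± 0.12 and 0.71 ± 0.12, adjusted p = 0.011 and 0.0026, edgeR). Both calls of Rab27a were lost with limma on log2(TPM + 0.5). Pla2g1b, a secreted phospholipase, was higher than Control in both silica groups, by 1.14 ± 0.22 and 1.01 ± 0.22.

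Of 14 genes of surfactant clearance, the uptake and breakdown of surfactant mostly by alveolar macrophages, 9 rose after silica and none fell. Without Control 2, Control 3 or Silica 1 the count was 5. In Silica + ATL-III, 2 rose and 4 fell against Silica, and 4 rose against Control. Rises against Silica numbered 1 without Silica 1, Silica 2, Silica + ATL-III 1 or Silica + ATL-III 2. Falls against Silica numbered 3 without Silica 1 or Silica 3, and 5 without Silica 2 or Silica + ATL-III 3. Csf2, the cytokine GM-CSF that type 2 cells release to macrophages, rose from 3.83 ± 0.766 to 8.50 ± 1.80 FPKM and fell to 2.36 ± 1.47 (log2 1.24 ± 0.37 and -1.81 ± 0.39, adjusted p = 0.041 and 0.0072, edgeR). The rise of Csf2 was lost whichever of the 6 Control and Silica libraries was left out (adjusted p of up to 0.11), and in 6 other settings. Its receptor chain Csf2rb rose after silica (1.31 ± 0.15, adjusted p = 0.00045, edgeR) and was at 1.81 ± 0.15 above Control with atractylenolide III. The near-identical copy Csf2rb2 gave 1.88 ± 0.20 and 1.76 ± 0.20, and reads could be split between the copies. Csf2ra rose against Silica (0.83 ± 0.17) and Sirpa fell (-0.74 ± 0.15, adjusted p = 0.0066 and 0.006, edgeR).

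Of 12 transcription factors of type 2 cells, none was called after silica in edgeR (3 at an unadjusted p under 0.05, 1 called by DESeq2 and 1 by limma on log2(FPKM + 0.5)). Without Silica 2, 1 rose after silica and 2 fell against Silica, and without Silica 1, 1 fell against Silica. In Silica + ATL-III, Stat3 rose against Silica (log2 0.71 ± 0.13, adjusted p = 0.0036, edgeR) and Control (a call lost with limma on log2(TPM + 0.5)), and Nr3c1, the glucocorticoid receptor, fell against Control (-0.43 ± 0.10, adjusted p = 0.011, edgeR), a call lost without Control 3 or Silica + ATL-III 1. Nkx2-1, whose motif was searched above, had 67.9 ± 5.85 FPKM in Control, 62.2 ± 10.1 in Silica and 48.3 ± 2.30 in Silica + ATL-III, with log2 values of -0.03 ± 0.12, -0.34 ± 0.12 and -0.37 ± 0.12 (adjusted p = 0.89, 0.061 and 0.056, edgeR).

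The list for the fibroblast growth factor pathway held ligands, a receptor, other ETV factors and inhibitors. Of its 12 tested genes, 1 fell after silica, 1 rose and 1 fell against Silica, and 1 rose and 2 fell against Control. Fgfr2, the receptor of type 2 cells, fell from 20.2 ± 3.11 FPKM in Silica to 12.9 ± 0.843 with atractylenolide III (log2 -0.62 ± 0.11, adjusted p = 0.003, edgeR). Its ligand Fgf10, made by fibroblasts, was lower than in Control (-0.87 ± 0.18, adjusted p = 0.0074, edgeR). Of 7 fibroblast markers, 5 fell in the same comparison (median log2 -0.94), and their part in the Fgf10 value was not tested. Spry4, an inhibitor induced by the pathway, rose against both other groups (1.2 ± 0.28 and 1.22 ± 0.28, adjusted p = 0.01 and 0.011, edgeR). Both calls of Spry4 were lost with limma on log2(TPM + 0.5). That against Control was also lost with limma on log2(FPKM + 0.5) and on log2(FPKM + 1). Il17rd, another inhibitor, fell after silica (-0.71 ± 0.15, adjusted p = 0.013, edgeR), a call lost without Control 3 or Silica 1. Without Silica 2, 2 genes of the list fell after silica and 2 against Silica, and without Silica 1, 1 rose after silica. Without Silica + ATL-III 3, 2 rose against Silica. Against Control 1 fell, not 2, without Control 1, Control 3, Silica + ATL-III 1 or Silica + ATL-III 3.

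Of 16 genes linked to injured alveolar epithelium, 6 rose after silica and none fell, 2 rose and 2 fell against Silica, and 4 rose against Control. The count after silica was 3 without Control 3 or Silica 1 and 10 without Silica 2. In those fits 862, 865 and 3944 of all genes were called after silica, against 2615 with no library left out. The rises against Silica, of Cdkn1a and Lcn2, numbered 1 without Silica 1 or Silica + ATL-III 2 and 0 without Silica 2, Silica 3 or Silica + ATL-III 1, and the falls numbered 4 without Silica 2. Lcn2, an iron-scavenging protein that neutrophils also hold, rose from 40.6 ± 10.9 to 289.8 ± 62.8 and 504 ± 191 FPKM (log2 2.92 ± 0.28 and 3.75 ± 0.29 against Control, adjusted p = 0.00015 and 1.5e-05, edgeR). Lgals3, a lectin that macrophages also express, rose from 80.1 ± 5.90 to 358 ± 169 FPKM and fell to 129.5 ± 21.7 (adjusted p = 0.00093 and 0.0048, edgeR). Itgb6, an integrin chain of activated epithelium, went from 11.3 ± 2.00 to 17.6 ± 0.866 and 7.76 ± 2.12 FPKM (adjusted p = 0.02 and 0.0013, edgeR). Its rise was lost without Control 2, Control 3 or Silica 1 (adjusted p of up to 0.079), with limma on log2(TPM + 0.5) and with pan-epithelial scaling.

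Of 14 tested genes of protein folding in the endoplasmic reticulum, none was called after silica in edgeR (2 at an unadjusted p under 0.05, 1 called by DESeq2 and 0 by limma on log2(FPKM + 0.5)). Against Silica 2 rose and 1 fell, and the fall, of Pdia4, was lost without any 1 of Silica 1, Silica 3 or the 3 Silica + ATL-III libraries. Rises against Silica numbered 1 without Silica 1, Silica 3 or Silica + ATL-III 1 and 0 without Silica + ATL-III 2. Without Silica 2, 2 rose after silica and 3 fell against Silica. Xbp1, a factor of secretory cells, rose by 0.42 ± 0.10 on the log2 scale (adjusted p = 0.014, edgeR), a call lost without Silica 3 or Silica + ATL-III 2. Of 2 tested other collectin genes, Colec12, a scavenger receptor with a collectin domain, was at 18.6 ± 1.13, 18.8 ± 2.64 and 10.7 ± 1.58 FPKM. It fell against Silica (-0.80 ± 0.14, adjusted p = 0.0027, edgeR) and against Control (-0.68 ± 0.14, adjusted p = 0.0069, edgeR), where Sftpd was higher.

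Markers of other cells moved with the groups. Of 12 macrophage markers, 8 rose after silica and none fell, and their summed level was 8022 to 10107 FPKM in Control, 15506 to 17675 in Silica and 10596 to 13907 in Silica + ATL-III. All 10 neutrophil markers rose in Silica + ATL-III against both other groups, with a summed level of 30079.9 to 45412 FPKM against 549 to 3881 in Control and 722 to 4500.1 in Silica. All 6 B cell markers fell against both groups (4 to 6 in either comparison with 1 library left out). With 1 library left out, macrophage rises after silica numbered 7 to 9 and neutrophil rises against Control 9 to 10. Of 7 fibroblast markers, 5 fell against Silica and 5 against Control, with a summed level of 144 to 176 FPKM in Control, 114 to 126 in Silica and 82.8 to 97.6 in Silica + ATL-III. Of 6 cardiac muscle markers, 5 fell after silica (4 without Control 1, Control 2, Silica 1 or Silica 3). In Silica + ATL-III against Control all 6 fell (4 to 6 with 1 library left out). Of 9 endothelial markers, 2 fell after silica (1 without Control 3 or Silica 1), and 4 rose (2 without Silica 1 or Silica + ATL-III 2) and 1 fell against Silica. Airway secretory markers summed to 40431 FPKM in Silica 1 and to 78586 to 101063 in the other libraries, and pan-epithelial markers to 219 to 287. Of 14 alveolar type 1 markers, 2 rose and 1 fell after silica, and 4 fell against Silica (2 without Silica 1). After silica the rises numbered 0 without Control 2, 1 without Control 3 or Silica 1 and 4 without Silica 2, and the falls 3 without Silica 2 and 0 without Control 2, Control 3, Silica 1 or Silica 3. The part of these cell types, neutrophils among them, in the values of the surfactant genes and of the genes named from the other lists was not tested.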

How the data were processed

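Poly(A) RNA of lung tissue was sequenced in 9 libraries, 3 per group. The deposited table gives raw counts per gene, with no scaling, beside FPKM that the authors derived (per the file headers). FPKM rebuilt from counts and exon lengths came within 0.006 of 100% of them. The submitters' processing notes list mm10, cutadapt 1.9.1, HISAT2 2.0.1 and HTSeq 0.6.1. The positions in the table were not used.

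Counts were tested with edgeR 4.0.16 (quasi-likelihood, TMM, R 4.3.3) on the 15459 genes that reached 1 FPKM in 3 or more libraries, fitting the 3 groups together with 6 residual degrees of freedom. Calls are Benjamini-Hochberg adjusted p under 0.05, and SE is |log2 fold change| over the root of the F value. Scripts were tested on simulated data. Alternatives used DESeq2 1.42.0, limma 3.58.1 on log2(FPKM or TPM + pseudocount), other scalings and filters, and each library left out.

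The members and 22 other lists (244 genes) were chosen with earlier results of these data known. From each list other than members and markers, the text may name per comparison the 2 called genes of smallest p in each direction. Nkx2-1, Cd83, the other marker genes, Csf2, Itgb6, Egfl6 and Ctsh after silica, and Fabp5 and Chil1 against Silica were named after their values were seen. No library repeated another of its group (lowest chi-square per df 6.44). Promoters are from RefSeq.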

Additional observations from a re-analysis of the deposited data

How the results depend on the processing

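No member reversed direction where it was called. After silica, 6 members were called, and 3 with limma on log2(FPKM + 0.1), 2 with limma on log2(TPM + 0.5), 2 with scaling to pan-epithelial genes (chosen after seeing the data) and 2 to 7 with 1 library left out: 2 without Control 2 or Control 3, 3 without Silica 1 or Silica 3, 4 without Control 1 and 7 without Silica 2. In Silica + ATL-III against Silica, 4 were called, 3 or 4 in other settings and 2 to 4 with 1 library left out (2 without Silica 3). All genes called in that comparison numbered 3279, and 2044 without Silica 3. Against Control, 2 were called, 4 with DESeq2, 4 with limma on log2(TPM + 0.5) and 1 to 2 with 1 library left out (1 without Control 1 or Control 3). Of all 15459 genes, 2451 were called against Control, 2889 with DESeq2 and 5888 with limma on log2(TPM + 0.5), where their median was -0.30. Without Control 1 or Control 3 the number was 1590 or 1474. The members' median against Control, 0.03, changed sign in 6 of 13 settings. The median of all genes after silica moved from -0.01 to -0.11 with library totals alone, to -0.19 with limma on TPM and to -0.22 with pan-epithelial scaling. Of all 15459 genes, 2615 were called after silica, 3614 with limma on TPM and 2375 with limma on log2(FPKM + 0.1). Without the filter 3780 of 33325 genes were called. Leaving out Control 1, Control 2 or Control 3 gave 1179, 1147 or 862 of all genes called after silica. Leaving out Silica 1, Silica 2 or Silica 3 gave 865, 3944 or 1202. The members' counts thus moved along with those of all genes. Of genes named by the rule from other lists, 10 of 14, 17 of 25 and 15 of 20 calls (in the order above) held whichever library was left out. The cause of these differences was not tested. Same-numbered libraries correlated at 0.090 to 0.12 in Silica and Control and at -0.13 to -0.013 in Silica + ATL-III and Silica, so the numbers were not taken to pair libraries, although each Silica library correlated best with the Control library of its number. With the replicate block, 6, 3 and 2 members were called, and 2120, 2822 and 2109 of all genes. With 3 libraries per group the SE of the members' log2 values was 0.098 to 0.20.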
